A study of Mus musculus with 4 samples.

Results

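A set of 109 cells of the WT tumor library carried a high level of Klk6, a secreted kallikrein protease, and Asprv1, the skin aspartic protease that trims filaggrin. They were chosen by the readout itself, as annotated cells of any class whose raw UMIs (unique molecules counted) of Klk6 and Asprv1 summed to 20 or more. They made up 2.10% of the 5181 annotated cells of WT tumor (95% interval 1.73 to 2.53, exact Clopper-Pearson) and were part of 15445 annotated cells in 4 libraries. They are called squamous cells below, after the epidermal genes they held, and were set beside 1091 Lumino-Basal cells of the same tumor that lay below the sum and 200 Basal cells of WT hyperplasia.

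Single-cell RNA was measured in mammary epithelium of MMTV-PyMT mice, in which the mammary tumor virus promoter drives polyoma middle T antigen, so all 4 groups carry the oncogene and none is a healthy gland. There were 2 stages, hyperplastic gland and tumor, and at each stage 1 library of genotype wild type (WT) and 1 of genotype PKA activated, in which protein kinase A signalling is on by a means the labels do not give. No treatment was applied. Glands were taken at 8 to 9 weeks. Mice with tumors were 16 to 20 weeks old by the labels of the libraries, while the overall design gives 22 weeks. The number of animals behind a library and the gate of the FACS sort before loading are not given, and the gate can set any share of cells. Glands were treated with trypsin and dispase and tumors were not, so stage and dissociation cannot be told apart in the comparison with Basal cells. With 1 library per group there was no replicate and no test: every interval below is an exact 95% interval that covers counting error only.

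Squamous differentiation is the programme by which stratified epithelia such as epidermis make a barrier. Dividing basal cells, which hold keratins 5 and 14 and the transcription factor p63, leave the basement membrane, and their suprabasal daughters switch to other keratins, strengthen desmosomes and build the cornified envelope, a protein shell crosslinked by transglutaminases. Kallikreins and other secreted proteases later cut the corneodesmosomes so that dead cells are shed, held in check by inhibitors such as the Spink family. The mammary gland is a bilayer of luminal and basal cells that does not normally cornify, although squamous metaplasia is known in mammary tumors.

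Promoter sequences are shown for 2 leading genes, Klk7 and Cnfn, the 2 highest genes against Lumino-Basal cells by the log2 ratio of CPM (UMIs scaled to a common total) plus 10, and the 2 of 8 leading genes looked up whose windows overlapped no annotated exon. Each run is the 250 bases before the RefSeq start in GRCm38.p6, 5′ to 3′ on the gene's strand, at chr7:43811044-43811293 (plus strand) for Klk7 and chr7:25369725-25369974 (minus strand) for Cnfn. Capitals mark matches to CCNCNCCC, a CACCC-type motif of Krüppel-like factors, on either strand; Cnfn held 2 and Klk7 none.
Klk7: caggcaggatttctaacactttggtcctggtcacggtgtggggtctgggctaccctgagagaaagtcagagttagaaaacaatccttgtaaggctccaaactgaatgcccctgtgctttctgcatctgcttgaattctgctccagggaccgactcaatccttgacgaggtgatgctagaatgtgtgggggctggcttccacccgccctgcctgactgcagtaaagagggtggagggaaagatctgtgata
Cnfn: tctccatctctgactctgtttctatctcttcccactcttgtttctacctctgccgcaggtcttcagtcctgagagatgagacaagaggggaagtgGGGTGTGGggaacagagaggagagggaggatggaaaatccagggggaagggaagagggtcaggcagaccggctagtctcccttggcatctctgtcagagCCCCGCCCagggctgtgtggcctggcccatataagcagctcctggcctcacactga

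Among the 15 highest genes against Lumino-Basal cells, 10 had a RefSeq window. An AP-1 motif (TGANTCA, which reads the same on both strands) stood in 4 of these 10 windows, against 6.75% of all 32814 windows of that length, and in 1 of the 10 matched genes among the 15 lowest. The 30 bases around each match are shown with the motif in capitals, since these 4 genes (Cysrt1, Rptn, Sprr1a and Tmprss11d) carry epidermal and mucosal products and Sprr1a held 2 matches. They lie at chr2:25240041-25240070 (minus), chr3:93393591-93393620 (plus), chr3:92486010-92486039 and chr3:92485980-92486009 (both minus) and chr5:86373409-86373438 (minus). Unlike those of Klk7 and Cnfn, the windows of these 4 genes each overlapped an annotated exon. Whether the stretches shown lie in an exon was not tested.
Cysrt1: atgaatcgtgatTGAGTCAccccagattgg
Rptn: ttgagcccagaaTGATTCAggccctaccaa
Sprr1a, distal match: cataactaaagcTGAGTCAgagggtgaact
Sprr1a, proximal match: aggggaggagggTGAGTCAtaggtgactgg
Tmprss11d: agcacgaaagagTGATTCAgttgagaggga
None of the 14 windows of the 12 kallikrein genes held the AP-1 letters. CCNCNCCC was found in 11 of these 14 windows and in 5 of the 10 leading windows, beside 45.9% of all windows. A grainyhead-like motif (AACCNGTT) was found in the Rptn window alone, beside 1.78% of all, and TATAAA in those of Rptn and Sprr1a, beside 12.4% of all. A match describes letters in these windows and shows no binding.

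The 2 genes of the rule were spread widely among the squamous cells. Klk6 ran from 0 to 614 UMIs per cell with a median of 32, and Asprv1 from 4 to 574 with a median of 65. The sum ran from 20 to 821 with a median of 116, 39 cells held more Klk6 than Asprv1, 70 held more Asprv1, and 9 held no Klk6. At the edge of the rule, 5 cells had sums of 20 to 24 just inside and 15 had sums of 15 to 19 just outside. Together the 2 genes made up 5.30% of the UMIs of squamous cells. These values describe the choice and support nothing.

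**Figure D1:**
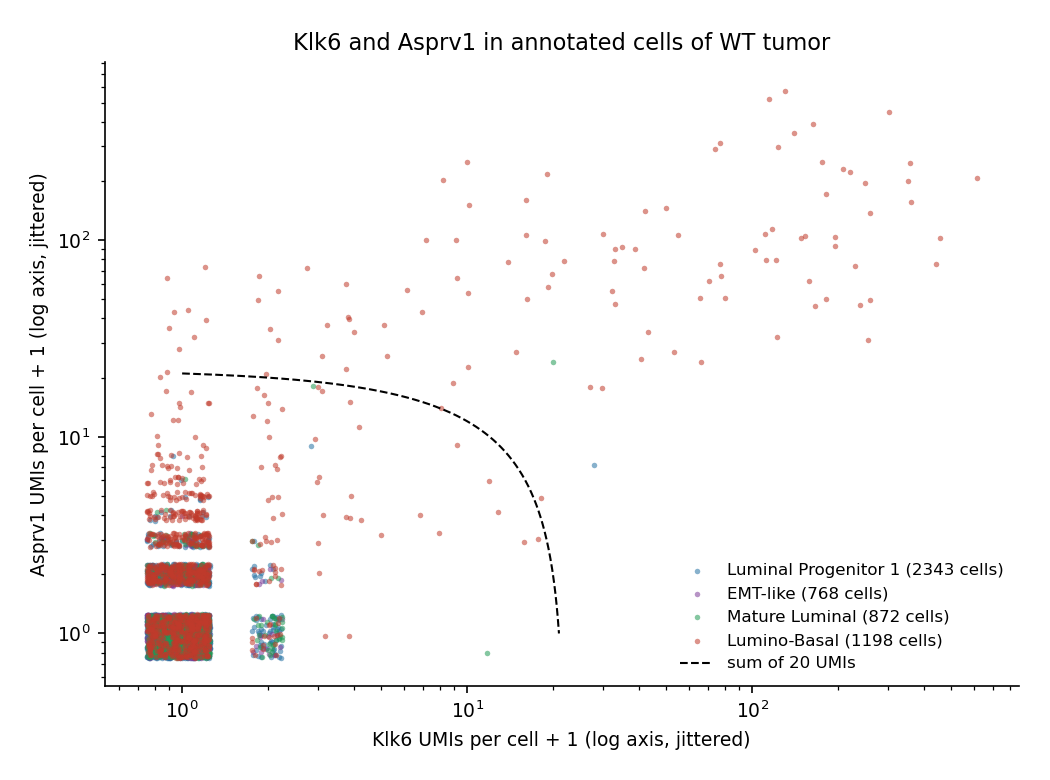
Klk6 against Asprv1 UMIs per cell, each plus 1 on log axes with jitter, in 5181 annotated cells of WT tumor coloured by the authors' class. The dashed line is a sum of 20 UMIs; beyond it lie 109 cells, 107 of them Lumino-Basal, that reach 614 Klk6 and 574 Asprv1 UMIs.

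By the authors' classes, 107 squamous cells were Lumino-Basal, a class defined by Krt14, Krt8 and Cd14, 1 was Luminal Progenitor 1 and 1 was Mature Luminal. They made up 8.93% (7.38 to 10.7) of the 1198 Lumino-Basal cells, and all 107 came from the authors' cluster 2, which held that class. None of the 768 EMT-like cells passed the sum, which allows a share of up to 0.479% by the exact interval. Outside WT tumor the rule found 2 of 3818 annotated cells in PKA hyperplasia, 1 of 2638 in PKA tumor and none of 3808 in WT hyperplasia. In WT hyperplasia the highest sum was 12, and the exact upper limit of the share was 0.0968%. The PKA tumor cell was Lumino-Basal too, with 65 Klk6, 34 Asprv1 and 50 Cnfn UMIs. That library had only 66 Lumino-Basal cells, beside 1198 in WT tumor, so the counts of the 2 tumors do not compare directly. Both PKA hyperplasia cells were Luminal Progenitor 1, with 22 and 29 Klk10 UMIs but no Cnfn, Krt79 or Krt16. Pairs of libraries shared between 16 and 24 barcodes.

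The 3 given markers that the rule did not use were Krt79, Cnfn and Krt16. Krt79 is a suprabasal keratin of hair follicle ducts, Cnfn the envelope protein cornifelin, and Krt16 a keratin of wounded and hyperproliferative epidermis. They were given with the label from these same data, so their shares describe the cells and do not test the label. Cells were thinned to 1300 UMIs, with shallower cells left out, so that shares of cells with a UMI compare across depths. At that depth 91 of 109 squamous cells (83.5%, 75.2 to 89.9) held at least 1 of the 3, and 21 held all 3. The same was true of 9.83% (8.13 to 11.8) of 1088 Lumino-Basal cells below the sum, 2.61% of 2336 Luminal Progenitor 1 cells of the tumor and 12.8% of 141 Basal cells. Before thinning the median depth was 3264 UMIs in squamous cells, 5600 in the Lumino-Basal cells and 1731.5 in Basal cells. Of other familiar epidermal genes, Ivl had no UMI, Krt1 had 1, Lor had 10 in 6 cells and Krt10 had 20 in 20 cells. Lor was still higher than in both comparison groups, which had 8 UMIs and none. The remaining 18 squamous cells held none of the 3 markers when thinned.

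**Figure D2:**
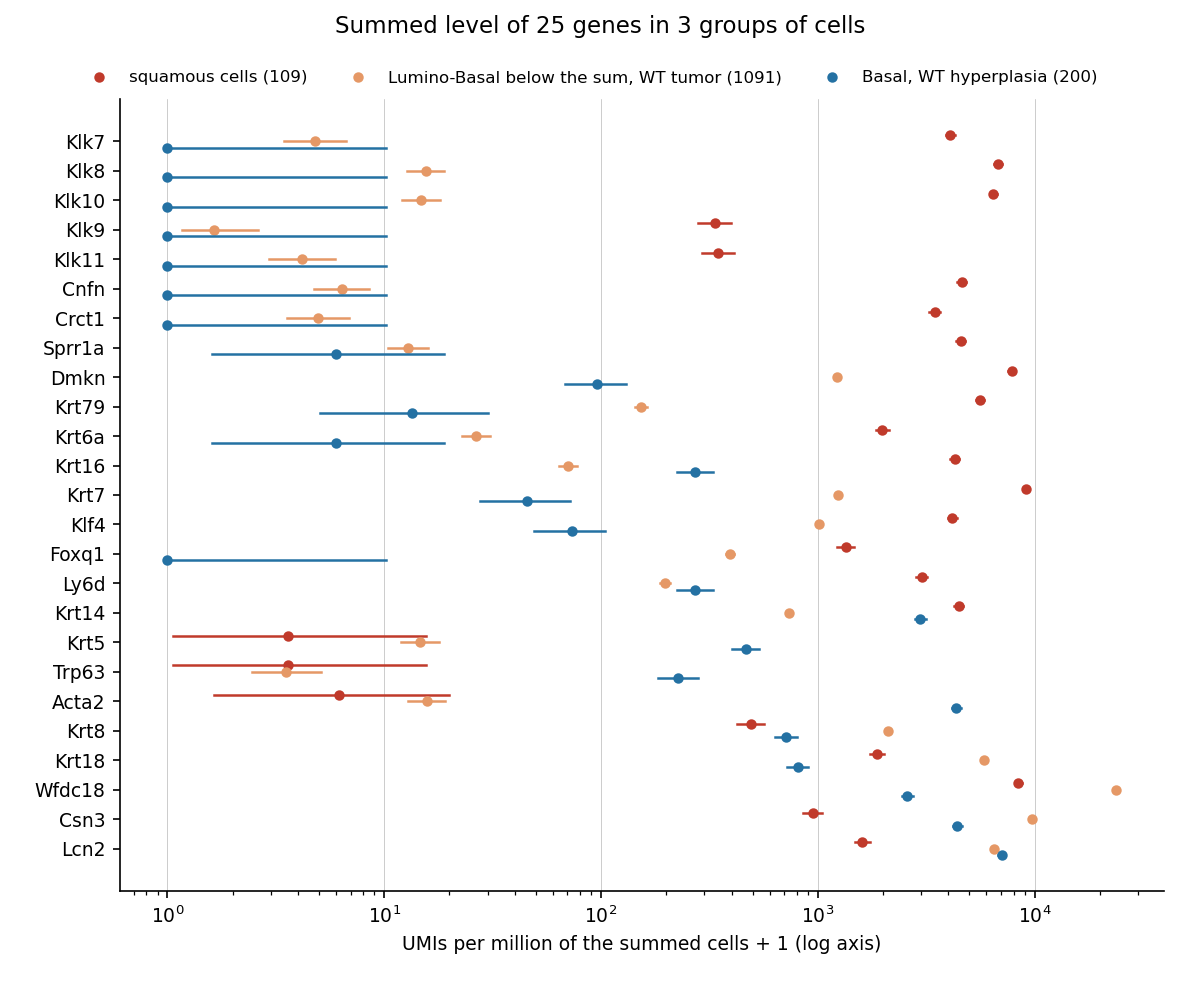
Summed level of 25 genes, in CPM (UMIs scaled to the same total on each side) plus 1 on a log axis, in squamous cells, Lumino-Basal cells below the sum and Basal cells of WT hyperplasia; points are sums over cells and bars exact 95% counting intervals. Klk7, Klk8, Klk10, Cnfn and Crct1 lie between 3458 and 6793 CPM in squamous cells and at 14.6 CPM or less in both other groups, while Krt5, Trp63 and Acta2 are near the floor in squamous cells.

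Kallikreins other than Klk6 were high in the same cells. For each gene the UMIs of all cells on a side were summed and scaled to CPM, the usual depth-scaled count, and a gene counted as higher or lower when the ratio of CPM plus 10 was at least 2-fold, among genes of at least 10 UMIs in both sides together and without Klk6 and Asprv1. All 7 measured kallikreins were higher than in Lumino-Basal cells, where 5.04% of 14153 measured genes were higher and 10.4% lower. All 7 were also higher than in Basal cells, where the shares of 8057 genes were 17.4% and 22.1%. None of the 7 had a UMI in Basal cells, so they counted as measured only through squamous cells and could only be called higher. The same holds for every measured gene with no UMI in Basal cells. Since both comparisons share the squamous side, their values are given side by side and are not 2 pieces of evidence, and the counts describe cells picked by a gene of the same cluster. The median kallikrein difference was 5.01 on the log2(CPM + 10) scale against Lumino-Basal cells, beside -0.25 over all measured genes, and 5.16 against Basal cells, beside -0.08. With genes at 0 on a side set to a floor of 3 counts and no CPM added, the medians were 8.86, beside -0.06 over all genes, and 5.54, beside -0.10.

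Klk8, a protease of stratum granulosum and of the nervous system, had 6793 CPM in squamous cells, 14.6 CPM in Lumino-Basal cells and none in Basal cells. It was 466-fold higher (378 to 580) than in the first and, with a floor of 3 counts over all Basal cells, at least 911-fold higher than in the second. Per squamous cell, Klk8 ran from 0 to 187 UMIs with a median of 12, and 97 of 109 cells held it. Klk10 was at 6459 CPM against 13.8 CPM in Lumino-Basal cells (468-fold, 378 to 587), with a median of 8 UMIs per cell and up to 156. Klk7, the chymotryptic enzyme that cuts corneodesmosin, was at 4089 CPM against 3.81 CPM (1074-fold, 719 to 1682). It was more unevenly held, with a median of 1 UMI per cell, up to 116, and 60 cells with any.

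Klk9 and Klk11 were at 334 and 347 CPM, and the activator kallikrein Klk5 at 26.1 CPM from 10 UMIs. Klk12 had 16 UMIs in squamous cells and 1 in all Lumino-Basal cells, with a ratio of at least 40.9 by the lower end of its interval. Klk13 and Klk14 had 4 and 7 UMIs in squamous cells, too few to count as measured. In thinned cells Klk8 was seen in 80.7% of squamous cells, 1.93% of Lumino-Basal cells, 0.428% of Luminal Progenitor 1 cells and none of the Basal cells. All kallikreins, Klk6 included, took 4.22% of the UMIs of squamous cells. In the kallikrein cluster on chromosome 7 (chr7:43690418-43885804, GRCm38), a span chosen after the values were seen, all 8 measured genes were higher in both comparisons. For the 7 kallikreins among them, which had no UMI in Basal cells, the call against Basal cells was fixed by the minimum of UMIs.

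Genes of the cornified envelope were high as a group. Of 18 measured, 15 were higher than in Lumino-Basal cells and none lower, with a median log2 difference of 3.49. All 15 measured against Basal cells were higher, with a median of 4.89. Of those 15, 9 had no UMI in Basal cells, counted as measured only through squamous cells and could only be called higher. Cnfn was at 4616 CPM, against 5.39 CPM in Lumino-Basal cells (856-fold, 610 to 1240) and none in Basal cells. It ran from 0 to 291 UMIs per squamous cell with a median of 1, and 55 of 109 cells held it, so the remaining squamous cells overlapped the comparison cells. Crct1, a cysteine-rich protein of the epidermal differentiation complex, was at 3458 CPM and 3.96 CPM (872-fold, 588 to 1353). Sprr1a, a small proline-rich crosslinking substrate, was at 4558 CPM and 11.9 CPM (383-fold, 304 to 490). Rptn, a filaggrin-like granule protein, was at 1030 CPM and 2.54 CPM (406-fold, 247 to 717).

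Not every member of the envelope list was present. Tgm1, the keratinocyte transglutaminase, was at 310 CPM and 14.4-fold higher (11.2 to 18.5) than in Lumino-Basal cells, and Tgm5 18.8-fold, but Tgm3 and Sprr1b had no UMI in squamous cells. Cdsn, corneodesmosin, was 63.5-fold higher (45.4 to 90.6) and Sbsn, suprabasin, 20.0-fold. Flg, filaggrin, had 37 UMIs in 9 cells, and Krtdap 110 UMIs in 7 cells. Dmkn, dermokine, was held by 106 of 109 cells at 7833 CPM and was already at 1228 CPM in the other Lumino-Basal cells. Across the epidermal differentiation complex on chromosome 3 (chr3:90511034-93564643), 12 of 25 measured genes were higher than in Lumino-Basal cells and none lower; against Basal cells 12 of 18 were higher and 3 lower.

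**Figure D3:**
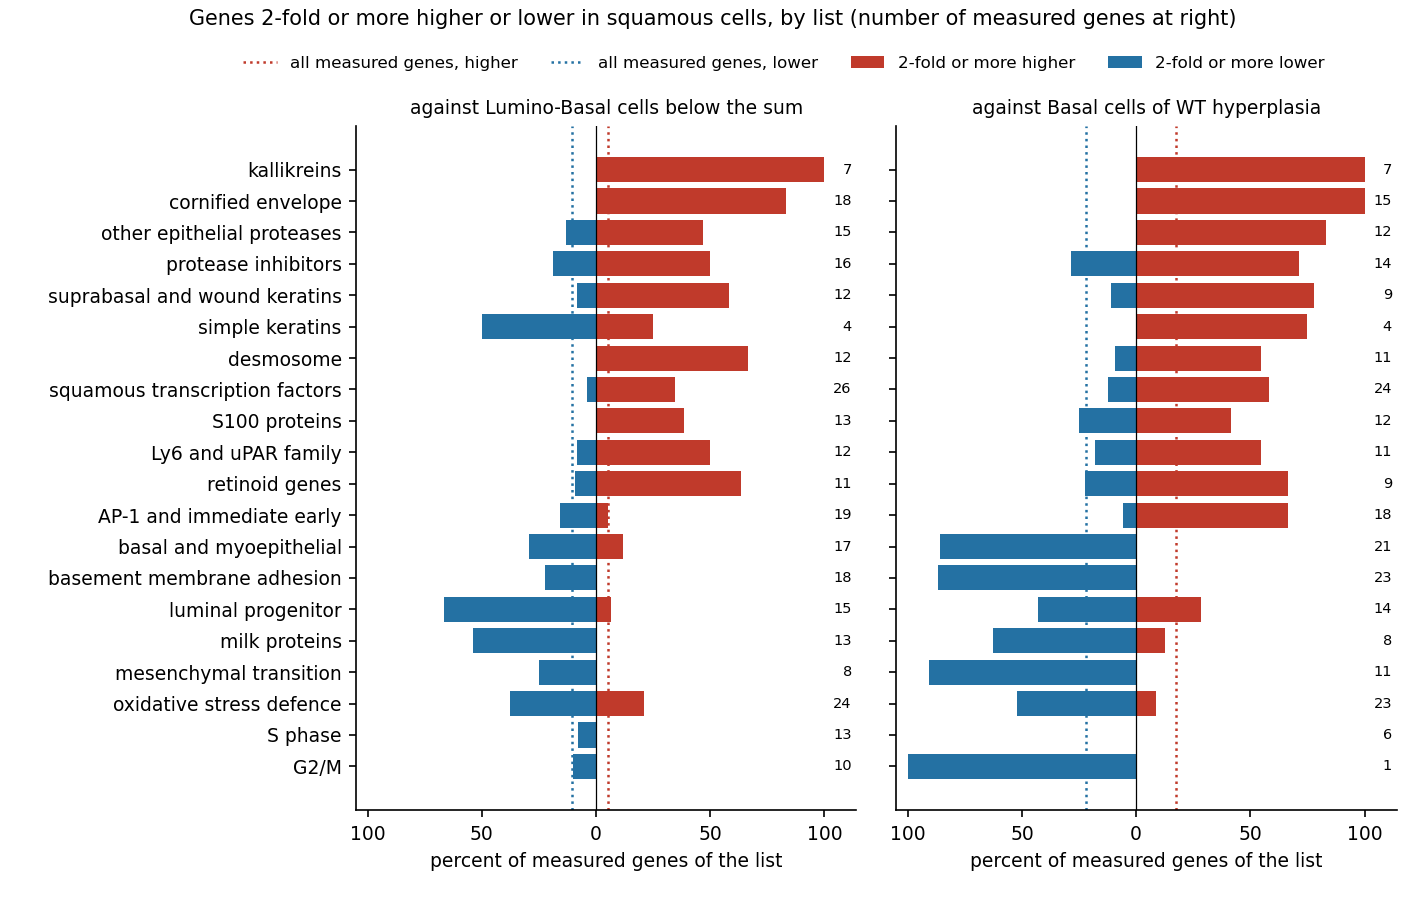
Share of the measured genes of each list that were 2-fold or more higher (red, right) or lower (blue, left) in squamous cells, with the number measured at the right edge and dotted lines for all measured genes. Kallikreins reach 7 of 7 in both panels and the cornified envelope 15 of 18 and 15 of 15. Luminal progenitor genes reach 10 of 15 lower on the left and basal and myoepithelial genes 18 of 21 lower on the right. On the right, 7 kallikreins and 9 envelope genes had no UMI in Basal cells, which fixed their side. So did the lack of UMIs in squamous cells for 11 basal and myoepithelial genes.

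Among other epithelial proteases, 7 of 15 were higher and 2 lower than in Lumino-Basal cells (median log2 difference 0.94), and 10 of 12 higher than in Basal cells (median 3.09). The membrane-anchored serine protease Prss27 was at 884 CPM and 232-fold higher (153 to 368) than in Lumino-Basal cells, and Prss22 at 1640 CPM and 40.4-fold higher (34.9 to 46.9). Tmprss11e was 171-fold higher (79.2 to 442) and Tmprss11d, an airway trypsin-like protease that was outside the list but among the 15 leading genes, was 510-fold higher (315 to 882). Matriptase (St14) and prostasin (Prss8), which start the epidermal protease cascade, differed by less than 2-fold from Lumino-Basal cells, at 143 against 226 CPM and 258 against 140 CPM. Ctsl, a lysosomal cathepsin, was 9.20-fold higher (8.49 to 9.97) than in Lumino-Basal cells and 1.34-fold higher than in Basal cells.

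Protease inhibitors stood on both sides, with 8 of 16 higher and 3 lower than in Lumino-Basal cells (median log2 difference 1.0) and 10 of 14 higher and 4 lower than in Basal cells (median 2.00). Spink5, the inhibitor of epidermal kallikreins, was 104-fold higher (70.3 to 160) than in Lumino-Basal cells and had no UMI in Basal cells. Spink12, a relative, was 236-fold higher (187 to 302), but 2 cells held 50% of its 1092 UMIs. The cystatin Csta1 was 243-fold higher (89.9 to 920), and Serpinb8 and Serpinb11 32.2-fold and 17.0-fold. Wfdc18, a whey-type inhibitor abundant in mammary epithelium, was lower than in Lumino-Basal cells at 8428 against 23774 CPM and higher than the 2591 CPM of Basal cells. Slpi, the secretory leukocyte protease inhibitor, was 2.14-fold lower (1.73 to 2.69) than in Lumino-Basal cells; its log2 difference was 0.016 when the sum was set at 10 or more and 0.29 when cells were chosen by Klk6 alone.

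Among the keratins, those of suprabasal and wounded epithelium were high while the spinous pair of resting epidermis, Krt1 and Krt10, was sparse. Of 12 suprabasal and wound keratins, 7 were higher and 1 lower than in Lumino-Basal cells (median log2 difference 3.5), and against Basal cells 7 of 9 were higher and 1 lower (median 4.69). Krt79 was at 5622 CPM, against 152 CPM in Lumino-Basal cells (36.9-fold, 34.2 to 39.8) and 12.4 CPM in Basal cells; it ran from 0 to 187 UMIs per cell with a median of 4. Krt16 was at 4284 CPM against 69.5 CPM and 271 CPM, with a median of 0 and up to 178 UMIs in the 49 cells that held it. Its partner Krt6a was at 1984 CPM against 25.5 and 4.97 CPM; Krt6a and Krt6b are near-identical, so the split of reads between them is uncertain. Krt78, Krt80 and Krt23 were 247-fold, 30.2-fold and 6.31-fold higher than in Lumino-Basal cells.

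Simple and basal-layer keratins differed among themselves. Krt7, a keratin of ducts and other simple epithelia, was at 9119 CPM, 7.37-fold higher (7.08 to 7.68) than in Lumino-Basal cells and 204-fold higher (129 to 344) than in Basal cells, and was held by 107 of 109 cells at a median of 22 UMIs. Krt8 and its partner Krt18, the standard luminal pair, were 4.29-fold (3.71 to 4.98) and 3.11-fold (2.88 to 3.35) lower than in Lumino-Basal cells. Krt14 was at 4464 CPM, above the 733 CPM of Lumino-Basal cells and the 2972 CPM of Basal cells, yet only 49 cells held it and 5 of them held 50% of its UMIs. Krt5, which pairs with Krt14 in basal cells, had 1 UMI in squamous cells against 465 CPM in Basal cells. When thinned, 35 squamous cells held Krt14 without Krt8, 9 held Krt8 without Krt14, 6 held both and 59 neither, so the 2 keratins that define the Lumino-Basal class were seldom seen together at that depth.

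Desmosome genes were higher in 8 of 12 cases than in Lumino-Basal cells, none was lower, and the median log2 difference was 2.28; against Basal cells 6 of 11 were higher and 1 lower, with a median of 1.17. The plakin Ppl (periplakin) was 11.3-fold higher (8.97 to 14.1), its envelope partner Evpl 8.31-fold, plakophilin Pkp1 15.7-fold (11.9 to 20.7) and desmoplakin Dsp 12.6-fold (9.58 to 16.5). Dsp differed little from Basal cells, at 256 against 219 CPM. Tight, adherens and gap junction genes showed a median of -0.02 against Lumino-Basal cells, with 4 of 22 higher and 2 lower: Cldn23 was 6.32-fold higher and Cldn7 3.82-fold lower, while Cldn4 was at 1398 and 1389 CPM. Enzymes of barrier lipids were mostly near their level in Lumino-Basal cells, with 2 of 19 higher and 1 lower. The 2 higher were Elovl4, which makes the very long fatty acids of barrier ceramides, at 561 against 5.08 CPM (110-fold, 76.0 to 166), and the ceramide synthase Cers3 (3.79-fold, 2.14 to 6.40). The 1 lower was the droplet coat gene Plin2 (8.34-fold, 4.38 to 18.3).

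Of 26 squamous transcription factors, 9 were higher and 1 lower than in Lumino-Basal cells, with a median log2 difference of 0.32; against Basal cells 14 of 24 were higher and 3 lower, with a median of 1.80. Klf4, required for the epidermal barrier, was at 4170 CPM against 1010 CPM in Lumino-Basal cells (4.13-fold, 3.91 to 4.36) and 72.1 CPM in Basal cells, was held by 106 of 109 cells, and had a median of 13 UMIs per cell. Prdm1 (Blimp1), a factor of late keratinocytes and sebaceous cells, was 58.5-fold higher (37.8 to 93.2), Grhl3 11.7-fold (6.74 to 20.2) and Ovol1 3.87-fold (3.03 to 4.91). Foxq1, among the leading genes against Basal cells, was at 1346 CPM in squamous cells, 3.43-fold higher (3.11 to 3.77) than in Lumino-Basal cells, and had no UMI in Basal cells. Trp63, the p63 gene, had 1 UMI in squamous cells, as sparse as in the other Lumino-Basal cells (16 UMIs), against 226 CPM in Basal cells. Tfap2c was 3.05-fold lower than in Lumino-Basal cells.

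Notch and retinoid signalling are both linked to squamous fate. In the Notch pathway 2 of 13 genes were higher than in Lumino-Basal cells and none lower, with a median log2 difference of 0.14. Over all measured genes 5.04% were higher, with a median of -0.25. The 2 higher were the receptor Notch2 (3.10-fold, 2.18 to 4.31) and the feedback gene Nrarp with 8 UMIs. Of 9 measured against Basal cells, 2 were higher and 3 lower, with a median of -0.59. The target Hes1 was at 2881 CPM, against 1672 CPM in Lumino-Basal cells and 14.9 CPM in Basal cells. The ligand Jag1 had 3 UMIs in squamous cells against 734 CPM in Basal cells. Of 11 retinoid genes, 7 were higher and 1 lower than in Lumino-Basal cells (median log2 difference 1.01). They included the retinol receptor Stra6 (13.2-fold), the retinol dehydrogenase genes Rdh10 (5.23-fold, 4.53 to 6.03) and Sdr16c6 (95.1-fold, 53.6 to 182), and Aldh1a3, which makes retinoic acid (4.02-fold, 2.85 to 5.58).

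The S100, Ly6, cytokine and antimicrobial lists differed in their balance. Of 13 S100 genes, 5 were higher and none lower than in Lumino-Basal cells (median log2 difference 0.51), led by S100a7a, the mouse psoriasin relative, at 1304 against 4.44 CPM (294-fold, 201 to 446) and S100a14 at 2159 against 178 CPM (12.1-fold, 11.1 to 13.3). Of 12 Ly6 and uPAR family genes, 6 were higher and 1 lower (median 1.31). Ly6d was 15.4-fold higher (14.2 to 16.6), Lypd3 11.7-fold (10.2 to 13.4) and Ly6g6c 17.7-fold. Epithelial cytokines stood on both sides, with 4 of 18 higher and 6 lower (median -0.53). Over all measured genes 5.04% were higher and 10.4% lower, with a median of -0.25. The alarmin Il1a had 16 UMIs in squamous cells and none in either comparison group, and its antagonist Il1rn was 12.7-fold higher (7.15 to 22.4) than in Lumino-Basal cells. Of 13 antimicrobial and acute phase genes, 2 were higher and 4 lower than in Lumino-Basal cells (median -0.48), and 4 of 11 were higher and 6 lower than in Basal cells (median -1.20). The 2 higher were the beta-defensins Defb1 and Defb14, 24.7-fold and 43.4-fold, and the 4 lower were Lcn2 (lipocalin 2, 4.07-fold, 3.76 to 4.42), Cd14, Slpi and Saa1.

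Luminal progenitor and milk genes were mostly lower. Of 15 luminal progenitor genes measured, 10 were lower than in Lumino-Basal cells and 1 higher, with a median log2 difference of -1.33, and of 13 milk protein genes 7 were lower and none higher, with the same median. Csn3, kappa-casein, was at 947 against 9723 CPM (10.3-fold lower, 9.26 to 11.4), and 1 squamous cell held 45.5% of its UMIs. Cd14, a coreceptor used to name both luminal progenitor and Lumino-Basal cells, was at 62.6 against 473 CPM (7.55-fold lower, 5.07 to 11.8), and only 16 of 109 cells held a UMI. Mfge8 was 4.70-fold lower and Kit 3.47-fold. Ltf, lactoferrin, was on the other side at 4644 against 3519 CPM, a 1.32-fold difference. Among the 15 lowest genes were also Thrsp (15.7-fold lower, 9.93 to 26.5), a regulator of lipid synthesis, Anxa6 (18.9-fold, 9.16 to 47.0) and Ppic, which had no UMI and was at least 13.1-fold lower.

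Lists of stress, immune and lineage genes outside the squamous programme held genes on both sides. Of 24 oxidative stress genes, 5 were higher and 9 lower than in Lumino-Basal cells (median log2 difference -0.43), and 2 of 23 higher and 12 lower than in Basal cells (median -1.05). The peroxidase Prdx6 was 7.17-fold lower (4.92 to 10.9) than in Lumino-Basal cells and its relative Prdx5 3.76-fold higher (3.45 to 4.10). Among the cytokines, the inflammasome product Il18 was 12.9-fold higher (6.54 to 24.9) and the chemokine Cxcl2 3.78-fold lower (1.98 to 8.32). None of 12 MHC class I genes and none of 21 hypoxia and glycolysis genes was higher, and 2 and 5 were lower. For comparison, 5.04% of all measured genes were higher than in Lumino-Basal cells and 10.4% lower. Upper hair follicle and sebaceous genes were higher in 1 case and lower in 5 of 14, although Krt79, which marks follicle ducts, was outside that list. Of 3 measured EMT-like class markers, 1 was higher and 2 lower than in Lumino-Basal cells (median -1.03). Trim29, a keratin-binding protein of stratified epithelium, was 21.3-fold higher (14.9 to 30.7). Sox4 was lower, at 480 against 1357 CPM, and so was Vim, with 1 UMI. Cldn6, too sparse to count as measured, had none.

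Proliferation genes were sparse. Mki67 had 1 UMI in all squamous cells. None of 13 S phase and none of 10 G2/M genes was higher than in Lumino-Basal cells, and 1 in each list was lower. Those counts were near the shares over all measured genes, 5.04% higher and 10.4% lower, and single out neither list. These genes were sparse in Lumino-Basal cells too, at a summed 164 and 57.1 CPM. The cell cycle inhibitor Cdkn1a was 2.96-fold higher (2.72 to 3.23) and Bax 6.44-fold lower (4.60 to 9.32). AP-1 and immediate early genes had a median of -0.25 against Lumino-Basal cells, equal to that of all genes, with 1 of 19 higher and 3 lower. Against Basal cells 12 of 18 were higher, with a median of 1.58; Fos was at 3859 and 358 CPM. Stage, age and tissue digestion cannot be told apart in that comparison.

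Depth and RNA makeup differed with the rule. Squamous cells had a median of 3264 UMIs (1302 to 12386) and 1450 genes, against 5600 UMIs and 2559 genes in the other Lumino-Basal cells. Mitochondrial genes took a median of 0.792% of UMIs against 1.44%, and ribosomal protein genes 1.51% against 5.17%. Basal cells had 2.22% and 5.98%. The part of these differences in the gene differences was not tested, apart from the alternatives that thin or match cells by depth. In 1 alternative, cells were thinned to 2000 UMIs and shallower cells were dropped, which kept 84 squamous, 1023 Lumino-Basal and 79 Basal cells. There, and with the 100 highest genes left out of the totals, the 30 genes named per comparison by rank kept direction and side of 2-fold. Those genes were picked for the largest differences, so this was largely fixed by the choice. More than 8782 UMIs, 2 times the median of annotated WT tumor cells, were found in 3 of 109 squamous cells (2.75%), 13.6% of the other Lumino-Basal cells and 5.56% of all other annotated cells of the tumor. Whether droplets held 2 cells was not tested.

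Set beside Basal cells of hyperplasia, squamous cells held Krt14 and were lower in most other genes of the basal programme. Of 21 basal and myoepithelial genes, 18 were lower and none higher, with a median log2 difference of -4.61, beside -0.08 over all genes. The 3 between were Krt14, Lgals7 (1604 against 2323 CPM) and the chemokine Cxcl14 (709 against 1368 CPM). Of the 21, 11 had no UMI in squamous cells and could only be called lower. Acta2, smooth muscle actin, was at 5.22 against 4354 CPM (835-fold lower, 231 to 6900), and Sparc, a matrix protein, had no UMI and was at least 646-fold lower. Snai2 and Myh11 had no UMI. Of 23 basement membrane adhesion genes, 20 were lower (median -2.79), among them the hemidesmosome integrin Itga6 at 39.1 against 507 CPM and Col17a1 with 2 against 50 UMIs. Against the other Lumino-Basal cells, where these genes were already sparse, 4 of 18 were lower and none higher.

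The metallothioneins Mt1 and Mt2 were 69.7-fold (56.0 to 87.9) and 679-fold (188 to 5616) lower than in Basal cells, and Apoe 127-fold (88.2 to 190). Stage, age and dissociation differ between these libraries, and some genes stood at different levels in all cells of the 2 libraries: Pfn1, among the 15 lowest, was at 39.5 CPM over WT tumor and 1992 CPM over WT hyperplasia. The Basal class also held markers of other cells. Fibroblast markers summed to 1679 CPM and endothelial and pericyte markers to 433 CPM there, so the comparison with Basal cells holds that RNA too. With Basal cells limited to 85 that held Krt5 or Krt14 and none of these markers, a choice made after seeing the data, all 30 named genes kept their direction and their side of 2-fold. As these genes had the largest differences by choice, that says little about other genes.

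Markers of endothelium, fibroblasts and blood were at or near 0 in squamous cells, and leukocyte markers were not. None of 8 endothelial and pericyte markers had a UMI, fibroblast markers had 4 UMIs, with Col1a1, Col1a2 and Col3a1 at 0, and erythroid markers had 2. Leukocyte markers had 127 UMIs in 12 cells, of which 1 cell held 115, and summed to 331 CPM against 144 CPM in Lumino-Basal cells and 962 CPM in Basal cells. Of 7 measured, 3 (C1qa, C1qb and Tyrobp) were higher and none lower than in Lumino-Basal cells, with a median of 0.97, and 6 of 7 were lower than in Basal cells (median -1.50). That direction turned with Basal cells of PKA hyperplasia (median 1.53) and, by construction, with the 85 Basal cells free of such markers (median 2.13). Their part in other results was not tested. Ptprc and 7 more of 17 were at 0, and Cd74 was at 203 CPM against 99 CPM in Lumino-Basal cells. Neutrophil markers were at 1705 CPM through Lcn2, which epithelium makes. All 9 epidermal keratinocyte markers were detected, at a summed 5998 CPM of which Krt14 made 4464, against 935 CPM in Lumino-Basal cells and 3497 CPM in Basal cells. They did not all go 1 way: 5 of 9 were higher and 2 lower than in Lumino-Basal cells, and 4 of 8 higher and 2 lower than in Basal cells. Detection in some rested on few UMIs, as given above for Krt1 and Lor. Tumor cells with squamous genes and skin keratinocytes carried along in dissection cannot be told apart by these markers alone.

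Levels differed with the sum of Klk6 and Asprv1 across Lumino-Basal cells, though not evenly at every step. The cells were grouped by that sum from 488 cells at 0 to 36 cells at 200 or more. Just outside the rule, at 15 to 19 (14 cells), Klk8 and Klk10 were both at 394 CPM. Just inside, at 20 to 24 (5 cells), they were at 79.6 and 0 CPM, while Cnfn was at 213 CPM outside and 676 CPM inside. Krt79 was high at low sums: it was at 23.7 CPM in cells with no UMI of either gene, 1363 CPM at sums of 5 to 14, 3004 CPM at 15 to 19 and 10265 CPM at 50 to 99, and was lower, at 3204 CPM, at 200 or more. Krt7 and Krt14 were also higher at 5 to 14, at 3387 and 3069 CPM against 1009 and 646 CPM at 0. Klk8 and Crct1 were high only at larger sums, with Klk8 at 111 CPM at 5 to 14, 2522 CPM at 50 to 99 and 14654 CPM at 200 or more, and Crct1 at 208 CPM and 9603 CPM in the last 2 of these. Wfdc18 went from 22760 CPM at 0 to 3944 CPM and Krt18 from 6122 to 807 CPM. Klk8 and Klk10 lie in the cluster of Klk6, and no test was made since the grouping uses the rule's genes.

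**Figure D4:**
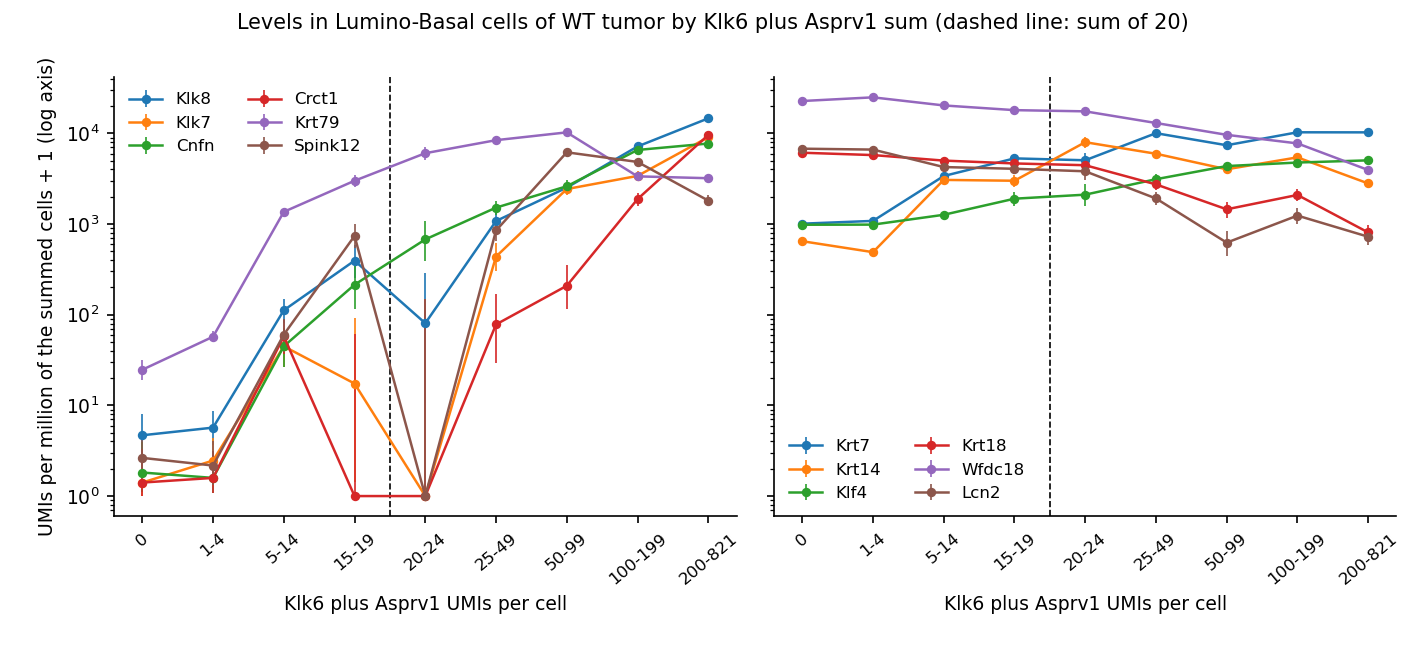
Summed level of 12 genes, in CPM plus 1 on a log axis, in Lumino-Basal cells of WT tumor grouped by their Klk6 plus Asprv1 sum; bars are exact 95% counting intervals and the dashed line is the sum of 20. Krt79 reaches 3004 CPM at sums of 15 to 19, below the line, whereas Crct1 reaches 9603 only at 200 or more and Wfdc18 is lowest there at 3944.

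Squamous cells were not alike in what they held. Klf4, Hes1, Dmkn and Krt7 were spread over most cells: 50% of their UMIs came from 31, 25, 24 and 21 cells, where the total UMIs of all genes needed 35 cells. Dmkn had a median of 21 UMIs per cell. Envelope genes were concentrated: 3 cells held 50% of the UMIs of each of Crct1, Sprr1a and Rptn, 6 cells those of Cnfn, and 2 cells those of Krtdap and Spink12. The highest cell had 498 Sprr1a UMIs, 28.5% of the total. So the CPM of these genes describes few cells, and in thinned cells Crct1 was seen in 31.2%, Sprr1a in 36.7% and Rptn in 18.3% of squamous cells, against 0.0919%, 1.10% and 0.46% of Lumino-Basal cells. Krt79 and Cnfn were seen together in 36 cells, Krt79 alone in 36, Cnfn alone in 15 and neither in 22.

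**Figure D5:**
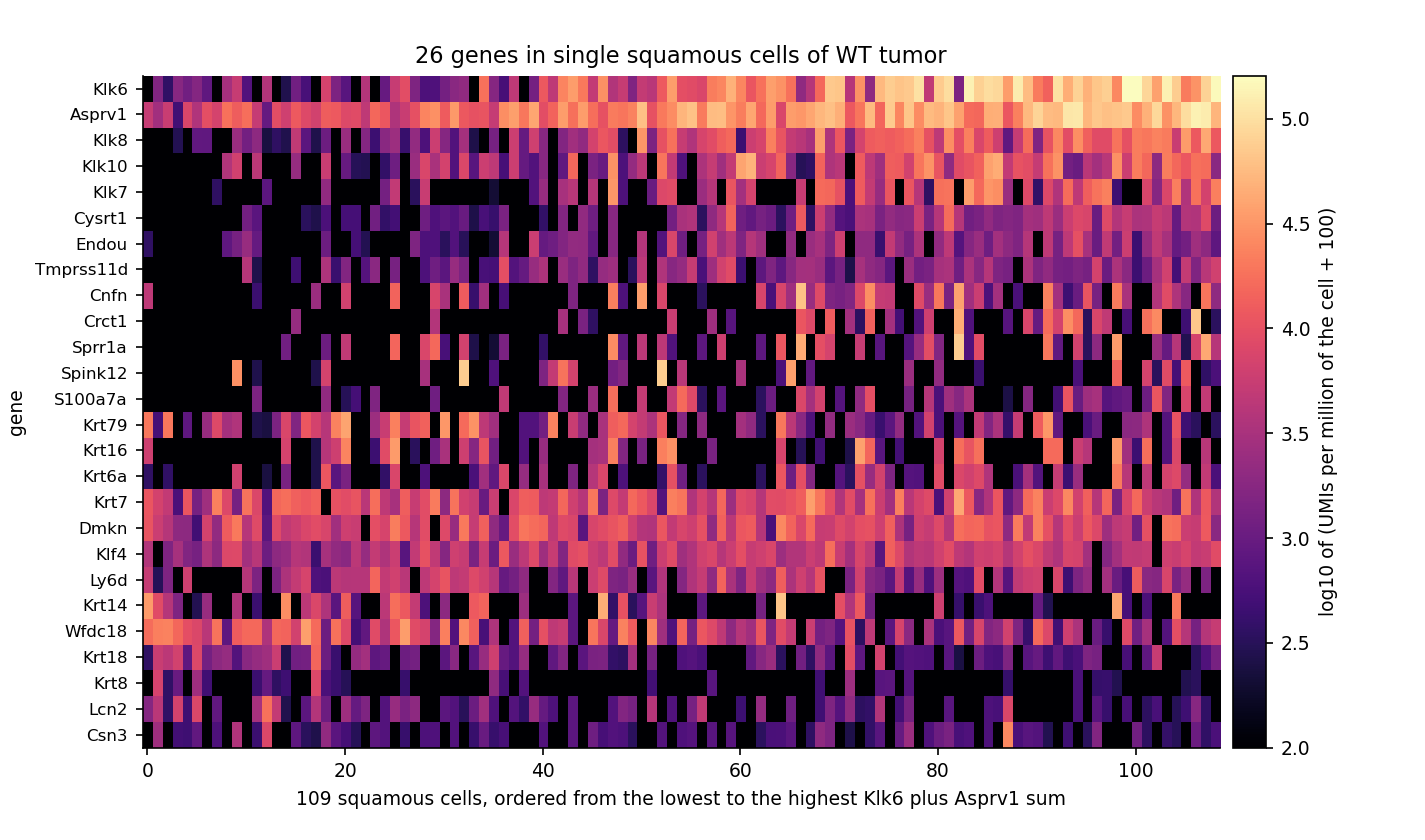
Level of 26 genes in each of the 109 squamous cells, as log10 of CPM plus 100, ordered from the lowest to the highest Klk6 plus Asprv1 sum. Krt7, Dmkn and Klf4 run across nearly all cells, Klk8 and Klk10 fill in from left to right, and Cnfn, Crct1 and Sprr1a appear in scattered bright cells.

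Across the 109 cells, thinned to equal depth, 385 genes were compared with the sum. The genes most like it by Spearman's rho were Klk8 (0.78), Ctsl (0.72), Cysrt1 (0.68), Endou (0.63) and Klk10 (0.61), followed by Mien1, Ctsb, Klk9, Klk7 and Tmprss11d (0.55), beside a median of -0.03. At the other end were Lgals7 (-0.66), S100a6 and Tagln2 (both -0.56). The cells share 1 library, and the sum itself ran against total UMIs (rho -0.45), so these values describe these cells. Klk6 and Asprv1 had a rho of 0.57.

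The 45 cells with 50 or more Klk6 UMIs were set beside the 37 with 0 to 9, as a description, since Klk6 chose the cells. Of 4182 measured genes 6.05% were higher and 17% lower in the first. All 6 measured kallikreins were higher, with Klk7 at 8854 against 456 CPM (19.4-fold), and 5 of 14 envelope genes were higher and 1 lower. Krtdap (12.7-fold), Flg (11.1-fold) and Dnase1l2 (8.39-fold), a keratinocyte nuclease that degrades DNA in cornifying cells, were on the same side. Of 4 simple keratins 3 were lower, Krt8 at 87.8 against 785 CPM (8.94-fold, 4.91 to 17.9). Lgals7, a galectin of stratified epithelium, was 10.2-fold lower (7.39 to 14.6), and S100a6 5.78-fold. The cells with more Klk6 had fewer UMIs (median 2846 against 3635), fewer genes (1193 against 1757) and a lower mitochondrial share (0.408% against 1.21%), whose part in these differences was not tested.

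Within WT tumor the leading genes were largely held by the squamous cells, which carried 1.57% of its annotated UMIs. Of the UMIs in annotated cells, they held 97.5% of Klk7, 97.2% of Cnfn, 97.1% of Crct1, 95.5% of Tmprss11d, 94.6% of Klk10 and 93.9% of Klk8. An unannotated barcode outside these shares held 77 Klk10 UMIs. Sprr1a and Cysrt1 were shared with another class, at 57.0% and 46.2%: Mature Luminal cells below the sum stood at 244 and 143 CPM. Those 2 genes were also seen in Mature Luminal cells of the other libraries, Sprr1a at 399 CPM in PKA tumor, 185 CPM in WT hyperplasia and 334 CPM in PKA hyperplasia. Klk10 was at 27.3 and 39.2 CPM in Luminal Progenitor 1 cells of WT and PKA hyperplasia. Crct1 and Spink12 had no UMI in any annotated class of either hyperplasia.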

How the data were processed

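Counts are raw UMI counts per gene and barcode as deposited by the authors. Per the submitters' processing notes, alignment and counting involved STAR 2.5.3a, Cell Ranger, and featureCounts from Subread 1.6.0, against GRCm38/mm10; no source used here states an annotation release. Deposited per-cell tables of the authors give the class, assigned with Monocle2 per the series design, and the mitochondrial share as a deposited fraction; UMI and gene counts per cell equalled the sums of the count files. Barcodes without an annotation were left out. No doublet caller was run and no doublets were removed. Some genes that every cell uses stood near 0 throughout (Gapdh at 3.71 CPM over WT tumor), for which the counting of reads with several matches was not tested, and their levels were not read.

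The members and all 43 gene lists were chosen with earlier results of these data known. UMIs were summed per side and scaled to CPM of 383484 (squamous), 6305942 (Lumino-Basal) and 402113 (Basal) UMIs. Genes were named by rank, 15 at the top and 15 at the bottom by log2 ratio of CPM plus 10 per comparison with at least 100 CPM on the higher side (without the rule's genes, mitochondrial, ribosomal protein, haemoglobin, predicted, sex-linked and non-epithelial marker genes), list members, markers, and the 10 genes most correlated with the sum; genes of the Klk6 tiers were ranked with at least 200 CPM. A gene with 0 UMIs on a side was set against a floor of 3 counts over that side. Folds are ratios of CPM with conditional binomial intervals. UMIs without replicates give counting error only.

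The comparison steps were tested on simulated data with known folds. Positions come from the GRCm38 annotation of the reference, which matched 673 of 674 named or listed genes, and promoters from RefSeq. Alternatives, 19 planned and 2 added after seeing the data, are given in the closing section. Work was done in Python 3.11.15 with NumPy 2.4.6, SciPy 1.17.1, pandas 2.3.3 and matplotlib 3.10.9. R 4.3.3 with edgeR 4.0.16 gave the TMM factors of 1 alternative.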

Additional observations from a re-analysis of the deposited data

Results flagged for a closer look

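Among the 619 WT tumor barcodes that the authors' annotation leaves out, which no comparison used, 7 had a Klk6 plus Asprv1 sum of 20 or more, or 1.13% (0.456 to 2.32), beside 2.10% of the annotated cells. The lower end of that interval is below 0.485%, the share that a floor of 3 counts makes of these barcodes. They had between 823 and 13309 UMIs with a median of 1191, and 6 of the 7 were shallower than the shallowest annotated squamous cell. Of the 7, 6 held Klk8, 4 Klk10, 2 Krt79 and 1 Cnfn.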

How the results depend on the processing

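Of 103 alternative values of the main counts and shares, 88 stayed within the limits set for them. The share of WT tumor cells was 2.68% at a sum of 10 or more, 1.56% at 50 or more and 1.49% with Klk6 alone at 10 or more; the Lumino-Basal share of the cells was 100% at 50 or more and 92.2% over all barcodes. Against Lumino-Basal cells the lower genes, 1477 in the report, were 863 at a sum of 10 or more and 2341 between the members' UMI quartiles (55 against 276 cells). The counts higher and lower, 713 and 1477, were 1378 and 4782 with 1 CPM added and 331 and 326 with 50 CPM. Against Basal cells, 1402 and 1779 became 626 and 773 with 50 CPM and 611 and 710 with a minimum of 50 UMIs, settings that by construction count fewer genes.

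Among values that were 2-fold or more in the report, signs turned for few, and the cause was not tested. Sign changes of smaller values were not counted. Against Lumino-Basal cells Slpi was at 0.016 (sum of 10 or more) and 0.29 (Klk6 alone), and Wfdc2 at -0.21 between the UMI quartiles. Against Basal cells the median of the 3 basal layer keratins was 0.35, 0.33 and 0.51 with a sum of 10 or more, 30 or more per 10000 UMIs and Asprv1 alone. With Basal cells of PKA hyperplasia the leukocyte median was 1.53, C1qa 1.79, C1qb 2.13 and Cd74 1.28; with the 85 Basal cells free of other cells' markers they were 2.13, 2.05, 2.13 and 4.42, and Dcn was 0.33. All 30 named genes of each comparison kept direction and side of 2-fold in the 20 and 21 alternatives run. They were picked as the most extreme, so this was largely fixed by the choice. Over all genes followed in the alternatives, 9925 values stayed on their side of 2-fold and 376 crossed it. A further 10, all 2-fold or more in the report, changed sign. Of the list medians 1452 stayed and 232 moved, while 5 that were 2-fold or more in the report changed sign. Quartile matching moved the median of all genes by -0.17 and thinning by -0.11 against Lumino-Basal cells. No paired analysis was possible because each group has 1 library. Depth limits genes under 10 UMIs in both sides together, which were not counted.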
